A study of Mus musculus with 2 samples.

Results

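The 32 genes described here encode the enzymes of cholesterol synthesis, the enzymes of fatty acid synthesis and the proteins that control both routes, out of 22204 genes listed in a spatial survey of the mouse ovary. They were chosen by pathway, with earlier results of these data known. The set holds 17 enzymes of the sterol branch, 10 enzymes of the fatty acid branch and 5 further genes. Of these 5 genes, 4 belong to the sterol-sensing machinery and the fifth, Stard4, encodes a cholesterol carrier. A gene counted as measured when it reached 20 counts in at least 1 section, which 31 of the 32 genes did. The exception was Idi1, the isomerase that makes dimethylallyl diphosphate, with 7 counts in the young and 10 counts in the old section. Slide-seq lays a thin frozen section on an array of barcoded beads of known position, so each count has a place in the tissue. The young section, whose label carries replicate number 3, came from a 2-month-old C57BL6/J female, and the old section, replicate number 1, from a C57BL6/J female of about 14 months. Sections were 10 µm thick and were taken at planes that held several oocytes, and the labels name no treatment or altered allele in either group. With 1 library per age there is no replicate check and no test between ages, and age, animal, plane of section and library cannot be told apart. In tissue sections of this kind, fewer cells of a type and less RNA per cell cannot be told apart either.

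Cholesterol is built from acetyl units through mevalonate, farnesyl diphosphate, squalene and lanosterol, and in the ovary it is the substrate of every steroid hormone. Fatty acids are built from the same acetyl units and are then lengthened and desaturated for membranes, lipid droplets and signalling lipids. Both routes are known to be driven by the SREBP transcription factors, which the escort SCAP carries out of the endoplasmic reticulum when sterols are scarce and which INSIG proteins hold back when sterols are plentiful.

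The young section held 5158314 counts on 21403 beads and the old section 2348768 counts on 10267 beads, with medians of 153 and 125 counts per bead and no bead barcode in common. Levels are given as counts per 1000000 (CPM) of a section's total, and ratios as old over young CPM with exact 95% intervals that cover counting error only. Over the 12586 measured genes the median ratio was 0.988. The tissues present differed in their markers: the summed level of 20 oocyte genes was 0.0896 times the young level in the old section, that of 12 granulosa genes 0.224 times, and that of 9 periovulatory genes, of which 4 were measured, 52.7 times. Steroid-forming markers (Cyp11a1, Hsd3b1, Fdx1 and Fdxr) summed to 17239 CPM in the young and 23660 CPM in the old section, a ratio of 1.37 (1.36 to 1.39), with 3 of 4 at least 1.5-fold higher. The part of these differences in tissue makeup in the results on the 32 genes was not tested.

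The sterol branch was higher in the old section by a wider margin than the fatty acid branch. The sterol genes summed to 4305 counts (835 CPM) in the young section and 6942 counts (2956 CPM) in the old, a ratio of 3.54 (3.41 to 3.68). The fatty acid genes summed to 8103 counts (1571 CPM) and 5581 counts (2376 CPM), a ratio of 1.51 (1.46 to 1.57). Of 16 measured sterol genes, 13 were at least 1.5-fold higher in the old section and none was lower by that size, beside 22.6% and 25.4% of all measured genes; their median ratio was 3.01. Of the 10 fatty acid genes 4 were higher and 1 was lower by that size, with a median ratio of 1.31, so this branch lay much closer to the genes at large. The sterol ratio divided by the fatty acid ratio was 2.34 (2.22 to 2.46), a value that does not depend on the section totals. The ratio of the summed steroid-forming markers, 1.37, was smaller than that of the sterol branch, but these markers differed among themselves. Hsd3b1, the most abundant, was at 0.932, while Cyp11a1, Fdx1 and Fdxr were at 2.16, 2.32 and 3.52. In the old section 1 region, singled out because its sterol level was the highest, was also rich in those markers. It held 31.9% of that section's sterol counts in bins. Without that region, the sterol ratio was 2.82 and the fatty acid ratio 1.23. A lower sterol ratio was fixed in advance by the choice of region, so these values are a description only.

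**Figure D1:**
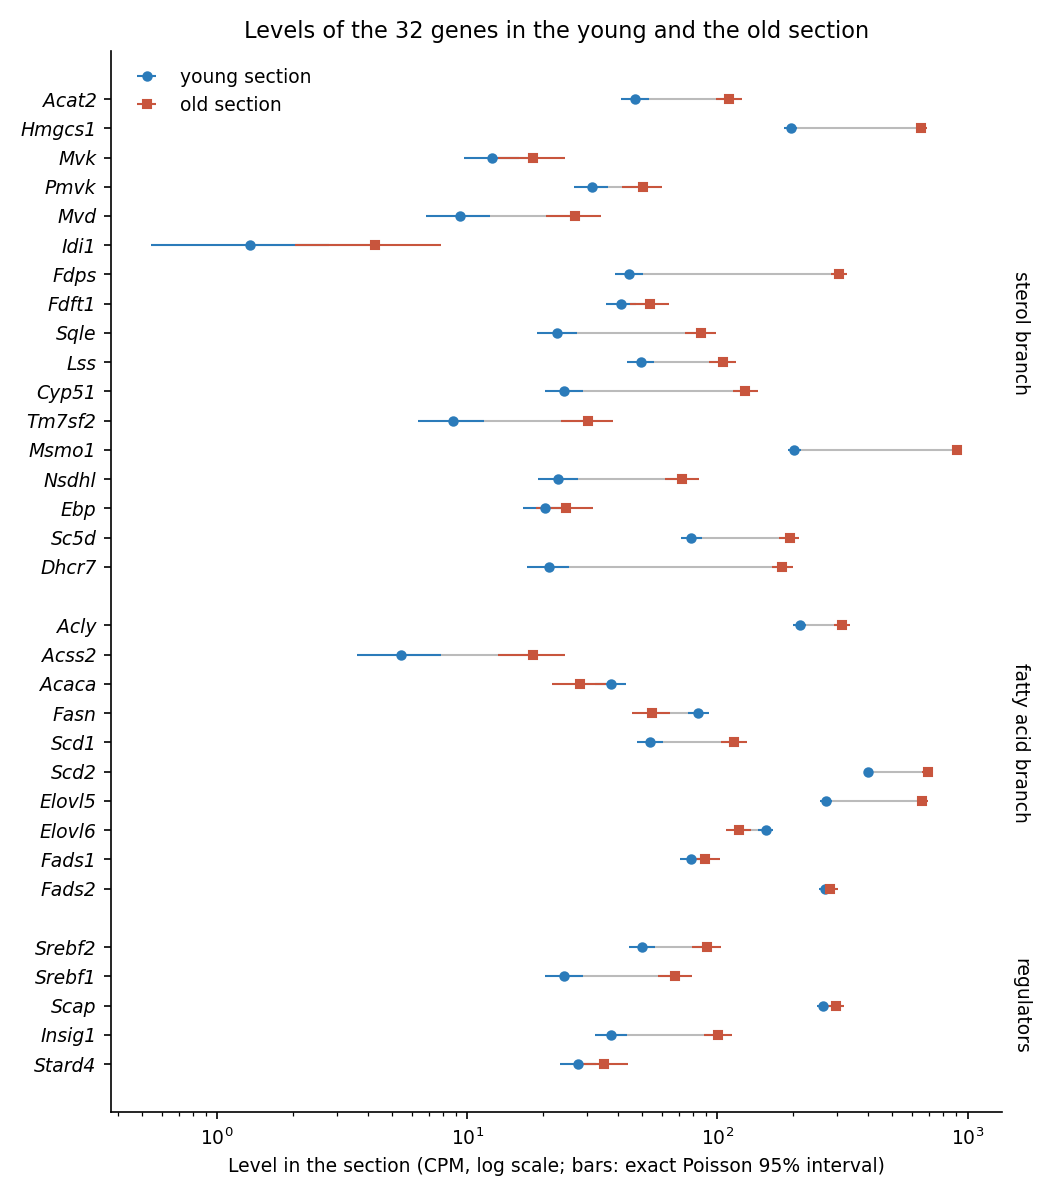
Level of each of the 32 genes in the young section (circles) and the old section (squares), in CPM on a log axis, with exact Poisson 95% intervals that cover counting error only. The old section lies to the right for every gene of the sterol branch, while Acaca, Fasn and Elovl6 of the fatty acid branch lie to the left.

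In the first stretch of the sterol route, from acetyl units to farnesyl diphosphate, the 7 genes summed to a ratio of 3.42 (3.22 to 3.64). Hmgcs1, the cytosolic synthase that commits acetyl units to the mevalonate route, had 1012 counts (196 CPM) in the young and 1534 counts (653 CPM) in the old section, a ratio of 3.33 (3.07 to 3.61). Fdps, which joins the isoprene units into farnesyl diphosphate, had 229 and 721 counts (44.4 and 307 CPM), a ratio of 6.91 (5.95 to 8.06). Acat2, the thiolase at the head of the route, had 242 and 262 counts and a ratio of 2.38 (1.99 to 2.84). The mevalonate kinases were nearer to parity than their neighbours in the route. Mvk had 65 and 43 counts and a ratio of 1.45 (0.965 to 2.17), an interval that includes 1, and Pmvk 162 and 118 counts and a ratio of 1.60 (1.25 to 2.04). Mvd, the decarboxylase that follows them, had 48 and 63 counts and a ratio of 2.88 (1.95 to 4.29).

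From squalene to lanosterol the ratio of the 3 summed genes was smaller, 2.16 (1.92 to 2.43), and the steps within it were uneven. Fdft1, the squalene synthase at the branch point with other isoprenoids, had 212 counts (41.1 CPM) in the young and 126 counts (53.6 CPM) in the old section, a ratio of 1.31 (1.04 to 1.64). Sqle, the squalene epoxidase that adds oxygen to squalene, had 118 and 201 counts (22.9 and 85.6 CPM), a ratio of 3.74 (2.97 to 4.74). Lss, the cyclase that closes the sterol rings, had 254 and 247 counts and a ratio of 2.14 (1.79 to 2.56). The intervals of Fdft1 and Sqle do not overlap, so adjoining enzymes of the route differed in their ratios beyond counting error.

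The 7 genes from lanosterol to cholesterol had the largest summed ratio of the 3 stretches, 4.06 (3.84 to 4.29). This sum leans on Msmo1, which held 1046 of its 1956 young and 2131 of its 3617 old counts. The order of the stretches without that gene was not computed. Msmo1, the oxidase that removes methyl groups from the sterol nucleus, had 1046 counts (203 CPM) in the young and 2131 counts (907 CPM) in the old section, a ratio of 4.47 (4.15 to 4.82). Dhcr7, the reductase of the last step of one arm of the route, had 109 and 427 counts (21.1 and 182 CPM), the highest ratio of the 31 measured genes at 8.60 (6.96 to 10.7). Cyp51, the lanosterol demethylase, had 126 and 304 counts (24.4 and 129 CPM), a ratio of 5.30 (4.29 to 6.58). These 3 enzymes stood well above the branch median. Sc5d, the sterol desaturase, had 406 and 456 counts and a ratio of 2.47 (2.15 to 2.83), while Nsdhl and Tm7sf2, a dehydrogenase and a reductase of the sterol nucleus, had ratios of 3.14 (2.47 to 4.0) and 3.47 (2.35 to 5.15). Ebp, the isomerase that shifts the ring double bond, was the lowest of the branch with 105 and 58 counts and a ratio of 1.21 (0.865 to 1.69).

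Promoters are shown for 4 of the genes whose positions in the old section are followed below, to set the known control elements of the pathway beside the counts. RefSeq windows of the 250 bases before the transcription start were found for 25 of the 32 genes on build GRCm38.p6; none was found for Fdps, Fdft1, Sqle, Scd1, Scd2, Fads1 or Stard4. Both strands were searched for TCACNCCAC, the core of the sterol regulatory element, and for CCAAT, the box bound by NF-Y. Matches are printed in capitals on the gene's own strand, where a match on the other strand reads as its reverse complement. The windows are Hmgcs1 at chr13:119690101-119690350 (plus strand), Msmo1 at chr8:64733579-64733828 (minus strand), Cyp51 at chr5:4104698-4104947 (minus strand) and Elovl5 at chr9:77917115-77917364 (plus strand), each ending at the base before the start.
Hmgcs1: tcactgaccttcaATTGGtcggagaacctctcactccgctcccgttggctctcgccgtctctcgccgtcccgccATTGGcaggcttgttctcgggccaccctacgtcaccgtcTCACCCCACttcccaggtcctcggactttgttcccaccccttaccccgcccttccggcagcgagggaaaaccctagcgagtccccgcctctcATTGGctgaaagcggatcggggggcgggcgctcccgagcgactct
Msmo1: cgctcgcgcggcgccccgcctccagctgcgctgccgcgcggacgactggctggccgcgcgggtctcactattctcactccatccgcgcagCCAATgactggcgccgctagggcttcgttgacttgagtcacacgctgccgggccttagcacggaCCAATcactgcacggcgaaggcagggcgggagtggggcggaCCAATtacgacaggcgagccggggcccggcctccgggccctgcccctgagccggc
Cyp51: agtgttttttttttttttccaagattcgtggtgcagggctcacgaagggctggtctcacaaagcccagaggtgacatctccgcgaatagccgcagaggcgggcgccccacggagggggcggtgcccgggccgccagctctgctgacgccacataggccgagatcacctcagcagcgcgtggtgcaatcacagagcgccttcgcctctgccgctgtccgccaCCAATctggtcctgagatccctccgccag
Elovl5: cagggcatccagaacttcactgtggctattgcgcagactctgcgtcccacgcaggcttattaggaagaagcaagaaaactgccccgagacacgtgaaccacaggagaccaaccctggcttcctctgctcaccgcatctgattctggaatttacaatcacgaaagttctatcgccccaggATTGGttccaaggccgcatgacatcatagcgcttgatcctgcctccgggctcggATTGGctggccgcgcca
The sterol regulatory element core was found in 1 of 14 sterol genes with a window, Hmgcs1, where its first base lay at position -137 from the start, and in 1.22% of all 27025 genes with a window. A CCAAT box was found in 13 of 14 sterol genes (92.9%), in 3 of 7 fatty acid genes (42.9%) and in 37.5% of all genes. The GC box GGGCGG was found in the same numbers of sterol and fatty acid genes, 13 of 14 and 3 of 7, beside 35.4% of all genes. The E-box CACGTG was found in 2 of 14 sterol and 1 of 7 fatty acid genes, beside 6.86% of all genes. A match describes letters in the window only, and other spellings of these elements were not searched.

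The fatty acid branch was uneven, both among the enzymes that build palmitate and among those that modify it. The 4 genes from citrate and acetate to palmitate summed to a ratio of 1.22 (1.13 to 1.32). Fasn, the fatty acid synthase itself, had 433 counts (83.9 CPM) in the young and 128 counts (54.5 CPM) in the old section, a ratio of 0.649 (0.529 to 0.792). Acaca, the carboxylase that makes its malonyl substrate, had 193 and 66 counts and a ratio of 0.751 (0.559 to 0.998). Acly, which releases acetyl units from citrate in the cytosol, had 1102 and 741 counts (214 and 315 CPM), a ratio of 1.48 (1.34 to 1.62). Acss2, which activates free acetate, had 28 and 43 counts and a ratio of 3.37 (2.05 to 5.64). Acly and Acss2 also feed acetyl units into sterol synthesis, and of these 4 genes Acaca and Fasn were the ones below parity.

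The desaturases and elongases of the same branch did not share a direction. Scd2, a stearoyl-CoA desaturase, had 2070 counts (401 CPM) in the young and 1629 counts (694 CPM) in the old section, a ratio of 1.73 (1.62 to 1.85), and Scd1, its paralog, had 278 and 273 counts and a ratio of 2.16 (1.82 to 2.56). Reads shared by the Scd paralogs cannot be told apart if the counting split them, since the rule for such reads is not given in the sources used here. Elovl5, the elongase of polyunsaturated chains, had 1402 and 1546 counts (272 and 658 CPM), a ratio of 2.42 (2.25 to 2.61). Elovl6, the elongase of palmitate, had 806 and 286 counts (156 and 122 CPM), a ratio of 0.779 (0.679 to 0.893). These elongases thus lay on opposite sides of parity. Fads1 and Fads2, the polyunsaturated desaturases that work alongside Elovl5, were near parity with ratios of 1.14 (0.964 to 1.36) and 1.04 (0.949 to 1.15).

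Among the regulators, the genes for both transcription factors and for Insig1 were higher in the old section. Srebf2, whose product chiefly drives the sterol genes, had 258 and 213 counts (50.0 and 90.7 CPM), a ratio of 1.81 (1.51 to 2.18). Srebf1, whose product chiefly drives the fatty acid genes, had 126 and 159 counts (24.4 and 67.7 CPM), a ratio of 2.77 (2.18 to 3.53), and Insig1, itself a target of these factors, had 194 and 236 counts (37.6 and 100.5 CPM), a ratio of 2.67 (2.20 to 3.25). Scap, the escort, was near parity with 1361 and 701 counts and a ratio of 1.13 (1.03 to 1.24), and Stard4 had 143 and 83 counts and a ratio of 1.27 (0.961 to 1.68). The factors are made as membrane-bound precursors and released by cleavage, which transcript counts do not show.

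The rest of the pathway, taken from lists of genes outside the 32, was more mixed. Of 9 measured further sterol synthesis genes 2 were at least 1.5-fold higher and none was lower by that size, beside 22.6% and 25.4% of all measured genes, so the share of higher genes lay near the background. Among the higher was Hsd17b7, which removes a keto group in sterol synthesis and also makes estradiol in the corpus luteum, with 215 and 1242 counts and a ratio of 12.7 (11 to 14.7). Acat1, the thiolase that joins acetyl units, had 669 and 234 counts and a ratio of 0.768 (0.659 to 0.893). Of 20 measured further fatty acid genes 10 were higher and 3 lower, beside the same 22.6% and 25.4%, among them Acsl4, an acyl-CoA synthetase of arachidonate, at 5.49 (4.90 to 6.14) and Mid1ip1, a partner of acetyl-CoA carboxylase, at 0.214 (0.184 to 0.247). Of 22 measured genes of sterol control, uptake and transport 10 were higher and 3 lower, also beside 22.6% and 25.4%. Star, which carries cholesterol into mitochondria, had a ratio of 7.44 (6.91 to 8.01), and the lipoprotein receptor Scarb1 had a ratio of 3.12 (2.90 to 3.35). The 3 lower genes were the cholesterol exporters Abca1 and Abcg1, at 0.539 (0.447 to 0.647) and 0.272 (0.214 to 0.342), and Mylip, a ubiquitin ligase, at 0.527 (0.323 to 0.830).

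Adipocyte markers were followed because fat around the ovary is rich in fatty acid enzymes. Adipoq, Cidec, Lep and Ucp1 had no count in either section, and of the 9 listed genes only 2 were measured: Fabp4, with 67 and 407 counts, and Plin1, with 160 and 32 counts. Their list summed to 45.0 CPM in the young and 187 CPM in the old section.

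Position was read by summing beads into square bins 5 bead spacings wide, keeping bins with at least 500 counts, which gave 1338 bins in the young and 895 bins in the old section. In the old section both branches were concentrated in a patch in the quadrant of low x and high y, where the sterol branch reached 4590 CPM against 1913 to 2661 CPM in the other quadrants. The same sum lay in the young section between 774 and 862 CPM in all 4 quadrants. Fatty acid genes reached 3517 CPM in that old quadrant against 1625 to 2153 CPM elsewhere, and steroid-forming markers 38996 CPM against 17772 to 20347 CPM. Moran's I, which is 0 for no pattern and 1 for perfect likeness of adjoining bins, was 0.179 (young) and 0.596 (old) for the sterol branch, and 0.366 (young) and 0.595 (old) for the fatty acid branch. The index also depends on the counts per bin, so each value describes its own section. Across bins the branches correlated with Pearson's r of 0.275 (Spearman's rho 0.243) among young bins and 0.696 (rho 0.436) among old bins, over bins that share a library.

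**Figure D2:**
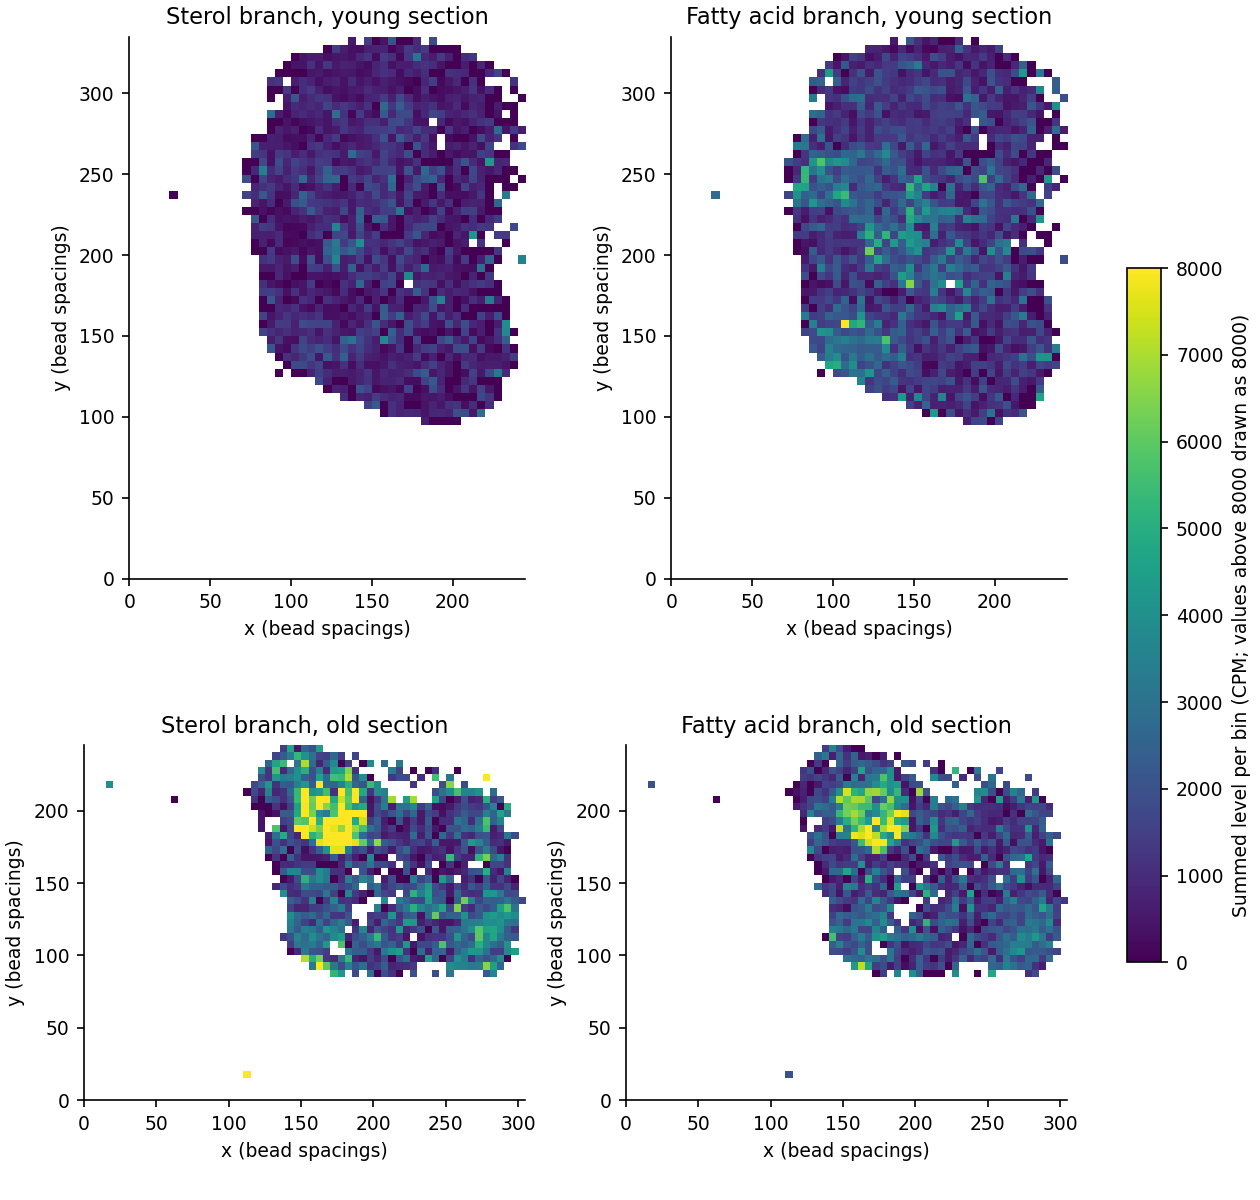
Summed level of the sterol branch (left) and the fatty acid branch (right) in each bin of the young section (top) and the old section (bottom), in CPM with values above 8000 drawn as 8000; axes are in bead spacings. Both branches are highest in the same patch of the old section, at low x and high y, and the young section holds no such patch of the sterol branch.

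To see which tissue the counts lay in, the fifth of bins with the largest share of counts in a marker list was set against all other bins of the same section. In the old section the sterol branch stood at 5675 CPM in bins rich in steroid-forming markers and 2326 CPM in the others, a ratio of 2.44 (2.32 to 2.56), and the fatty acid branch at 4275 and 1944 CPM, a ratio of 2.20 (2.08 to 2.33). Among young bins the ratios were smaller and alike, 1.62 (1.51 to 1.74) for the sterol and 1.64 (1.56 to 1.73) for the fatty acid branch. Both branches were thus higher, in both sections, in bins rich in transcripts of Cyp11a1 and Hsd3b1, enzymes of progesterone synthesis. Bins outside them were also higher in the old section for the sterol branch, at 2326 against 762 CPM, and less so for the fatty acid branch, at 1944 against 1434 CPM. The fifth is a rank cut within each section, so the other bins also hold steroid-forming markers. In the old section the fifth was 179 bins, while 1 region of 211 bins, led by Gpnmb, held these markers at 28662 CPM. The other bins were not matched in these markers, and the part of this in the values was not tested.

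Luteal markers, which mark the corpus luteum formed after ovulation, gave different ratios in the 2 sections, a difference that was not tested. In the old section bins rich in them held 2.26 times the sterol level of the other bins (2.15 to 2.37) and 2.02 times the fatty acid level (1.91 to 2.14). Among young bins the ratios were 1.00 (0.926 to 1.09) and 0.840 (0.790 to 0.893), so luteal bins there did not differ in sterol level beyond counting error and were lower in fatty acid level. Of the 16 sterol genes, 14 reached a 1.5-fold higher level, and none a lower one of that size, in luteal bins of the old section, beside 11.6% and 25.5% of all genes, and 3 were higher and 4 lower in those of the young section, beside 12.9% and 26.5%. The 3 genes higher in young luteal bins were Dhcr7, at 2.97 (1.97 to 4.43), Fdps, at 1.91 (1.41 to 2.56), and Ebp, at 1.66 (1.02 to 2.63). Bins rich in theca and interstitial markers, a list dominated by Aldh1a1, showed the reverse order. Their sterol ratio was 1.56 (1.45 to 1.68) in the young and 1.11 (1.04 to 1.19) in the old section, but 0.903 in the tenth of bins richest in that list. Bins rich in macrophage markers were lower than the others in both branches and both sections, with ratios between 0.542 and 0.862, as were those rich in surface epithelium, between 0.565 and 0.786.

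**Figure D3:**
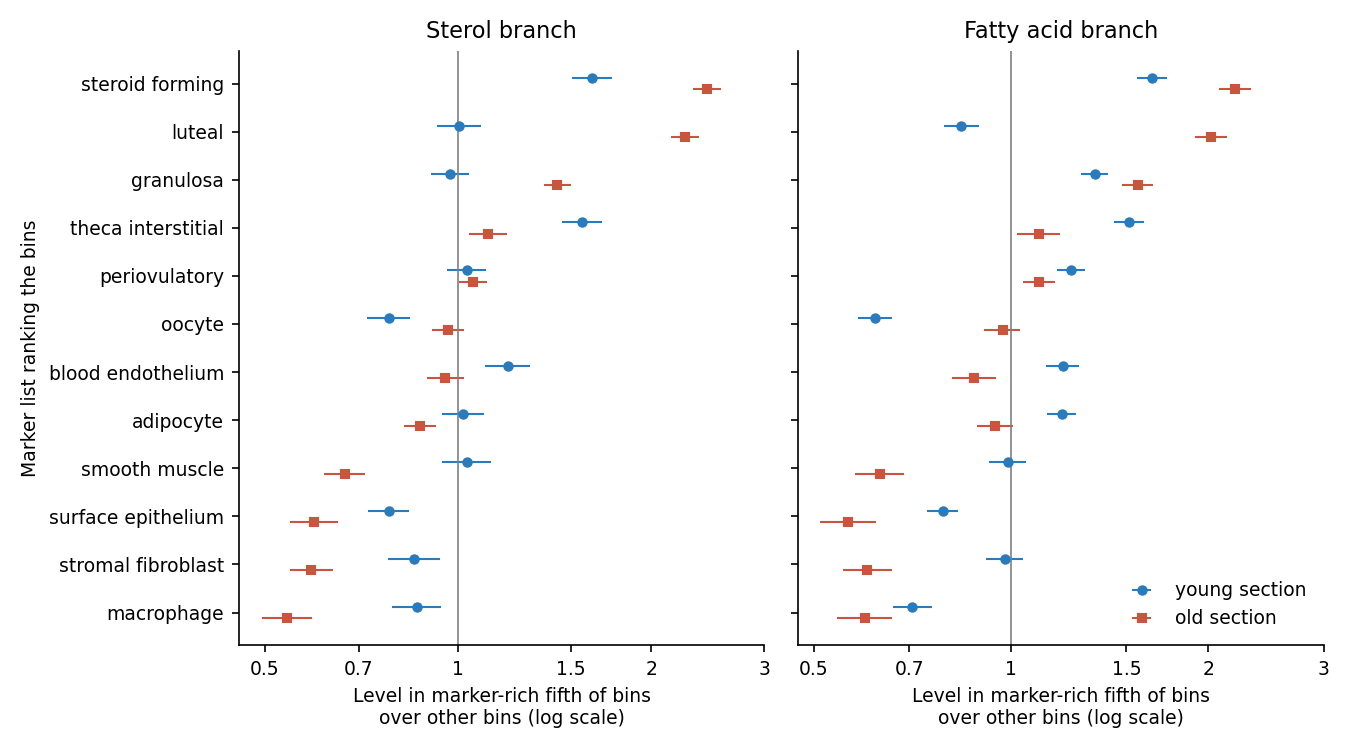
Level of the sterol branch (left) and the fatty acid branch (right) in the fifth of bins richest in each marker list over the other bins of the same section, on a log axis with exact conditional 95% intervals, for the young section (circles) and the old section (squares). Steroid-forming bins are above 1 in all 4 cases, and luteal bins are at 2.26 and 2.02 in the old section and at 1.00 and 0.840 in the young section.

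Gene by gene, the sterol enzymes in the old section were higher in steroid-forming bins nearly as a block. Of the 16 measured in bins, 13 lay at least 1.5-fold higher there, with none lower by that size, beside 11.2% and 25.9% of 10473 genes. In the young section 5 of 16 were higher and 2 lower, beside 10.3% and 27.3% of 12377 genes. Of the 10 fatty acid genes, 6 were higher and 1 lower in the old section, and 7 were higher and none lower in the young section.

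Elovl5 was the gene most concentrated in steroid-forming bins of the old section, with 1774 CPM there and 395 CPM in the others, a ratio of 4.49 (4.06 to 4.98); in the young section it was 2.01 (1.78 to 2.27). Sc5d had ratios of 3.47 (2.87 to 4.20) among old bins and 2.36 (1.89 to 2.93) among young bins, and Hmgcs1 of 3.02 (2.73 to 3.35) and 1.70 (1.47 to 1.97). Msmo1 was alike in both, at 2.11 (1.93 to 2.32) and 2.22 (1.94 to 2.55). These 4 genes followed steroid-forming bins in both sections. For Fdps, Dhcr7 and Fdft1 the young intervals included 1, with old ratios of 2.66 (2.28 to 3.10), 2.37 (1.93 to 2.91) and 1.92 (1.28 to 2.83) and young ratios of 1.21 (0.843 to 1.71), 1.08 (0.615 to 1.81) and 0.913 (0.598 to 1.35). The 2 Scd paralogs were placed in opposite ways. Scd2 had a ratio of 1.96 (1.77 to 2.18) among old bins and 0.868 (0.762 to 0.985) among young bins, and Scd1 of 0.541 (0.360 to 0.789) and 2.11 (1.60 to 2.76).

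**Figure D4:**
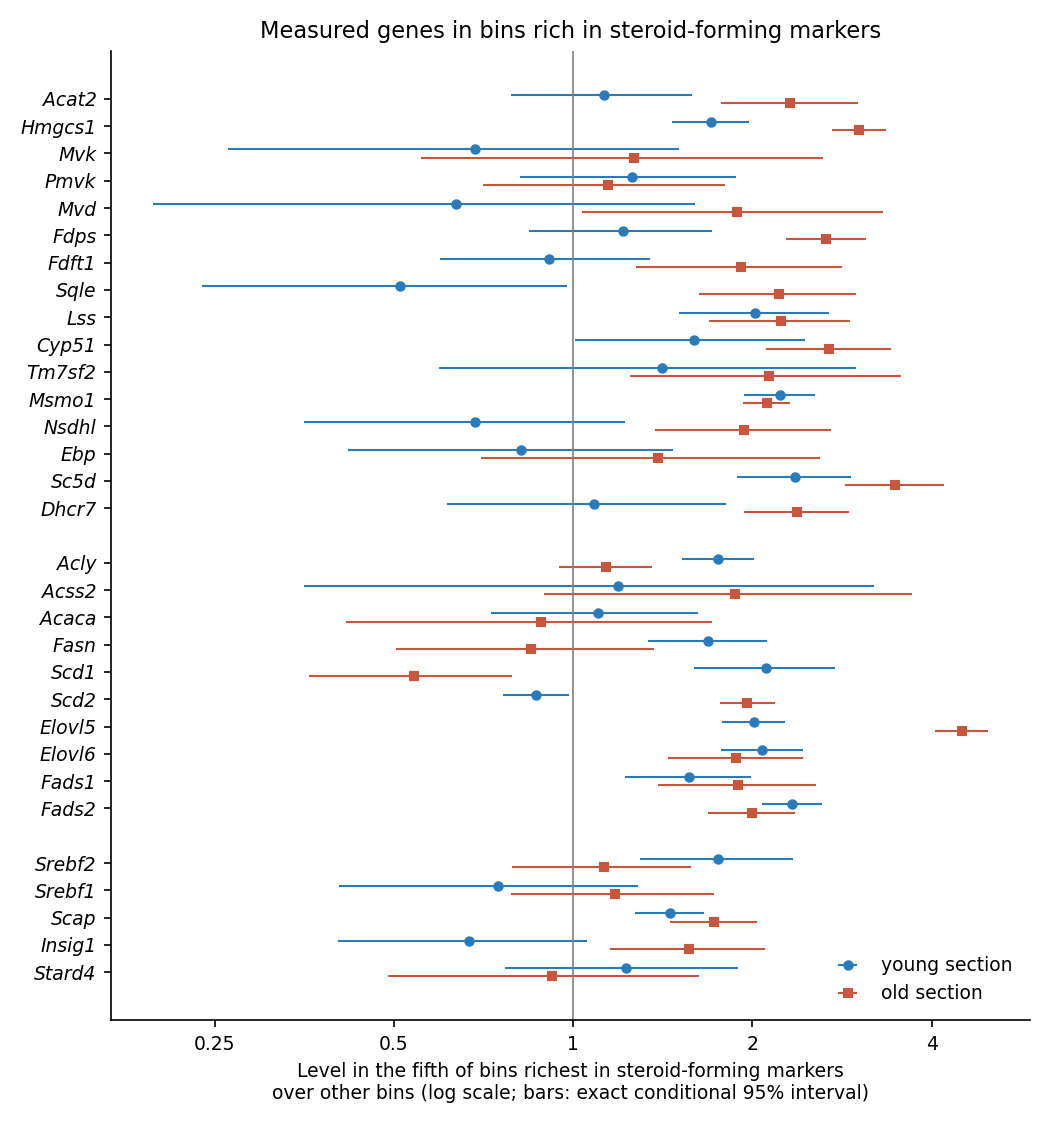
Level of each measured gene in the fifth of bins richest in steroid-forming markers over the other bins, on a log axis with exact conditional 95% intervals, in the young section (circles) and the old section (squares), ordered as sterol branch, fatty acid branch and regulators from top to bottom. Elovl5 in the old section lies farthest to the right at 4.49, and Scd1, Scd2 and Sqle lie on opposite sides of 1 in the 2 sections.

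Granulosa cells surround the oocyte in the follicle, and bins rich in their markers differed from the others gene by gene. In the old section Gja1 and Nr5a2, with 1688 and 1081 counts, were the most abundant of these markers. Fshr, Cyp19a1 and Grem1 had 7, 4 and 3 counts there. Granulosa-rich bins of the old section are thus named by the list, and their cell type was not tested. Elovl6 was at 299.5 CPM in granulosa-rich bins of the young section and 102 CPM in the others, a ratio of 2.95 (2.56 to 3.39), and at 2.05 (1.60 to 2.61) in the old section. Scd2 was at 1.94 (1.78 to 2.12) and 1.94 (1.75 to 2.14), and Scap at 1.54 (1.38 to 1.72) and 1.88 (1.61 to 2.19). Hmgcs1 was lower in the same young bins, at 0.646 (0.551 to 0.754). By branch, 2 of 16 sterol genes were at least 1.5-fold higher and 2 lower in granulosa-rich bins of the young section, beside 11.3% and 24.7% of all genes, and 8 higher and 2 lower in those of the old section, beside 10.3% and 17.9%.

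Each section was also divided into regions of like bins, clustered without the 32 genes or the other pathway genes and called by their leading genes. The young section gave 12 regions with sterol levels between 515 and 1294 CPM, and the old section 10 regions between 1108 and 6748 CPM, of which 9 lay above the highest young region. For the fatty acid branch the ranges were 483 to 2541 CPM and 1213 to 5203 CPM, and 2 of 10 old regions lay above the highest young one. The highest young region stood 5.26 times above the lowest in the fatty acid branch, and 2.63 times with coarser clustering. The regions of the 2 sections thus barely overlapped in the sterol branch and overlapped widely in the fatty acid branch. Regions of a section share its library and are not replicates, so these ranges are a description only. The share of all genes whose regions separate in this way was not computed. Whether the separation of regions goes beyond the ratios of the whole sections was not tested.

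The old region led by Ssu2, Bace2 and Rab27a, singled out because its sterol level was the highest, covered 104 bins with 14.0% of the counts and 31.9% of the sterol and 30.5% of the fatty acid counts in bins. Its sterol level was 6748 CPM (6467 to 7038), 2.86 times the other bins (2.72 to 3.01), and its fatty acid level 5203 CPM (4957 to 5458), 2.69 times (2.54 to 2.85). Its markers were steroid-forming at 50903 CPM and luteal at 9860 CPM, the highest of the 10 regions for both, so it overlaps the bins described above. Since the region was chosen by its sterol level, the counts of sterol genes there are a description from which nothing is read. Of 16 sterol genes 13 reached a 1.5-fold higher level and none a lower one of that size, beside 12.4% and 31.2% of 10473 genes, and of 10 fatty acid genes 6 were higher and 1 lower. Elovl5 was at 2175 CPM against 414 CPM in the other bins (ratio 5.25, 4.74 to 5.81), Sc5d at 534 against 139 CPM (3.83, 3.14 to 4.65) and Cyp51 at 335 against 95.3 CPM (3.51, 2.75 to 4.48). Scd1 was the gene lower by that size, at 65.2 against 126 CPM, a ratio of 0.516 (0.314 to 0.806). Scd1 was instead highest in the regions led by Cxcl14 and by Edn2, at 256 and 210 CPM, which also held the highest levels of periovulatory markers, at 2463 and 4852 CPM.

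**Figure D5:**
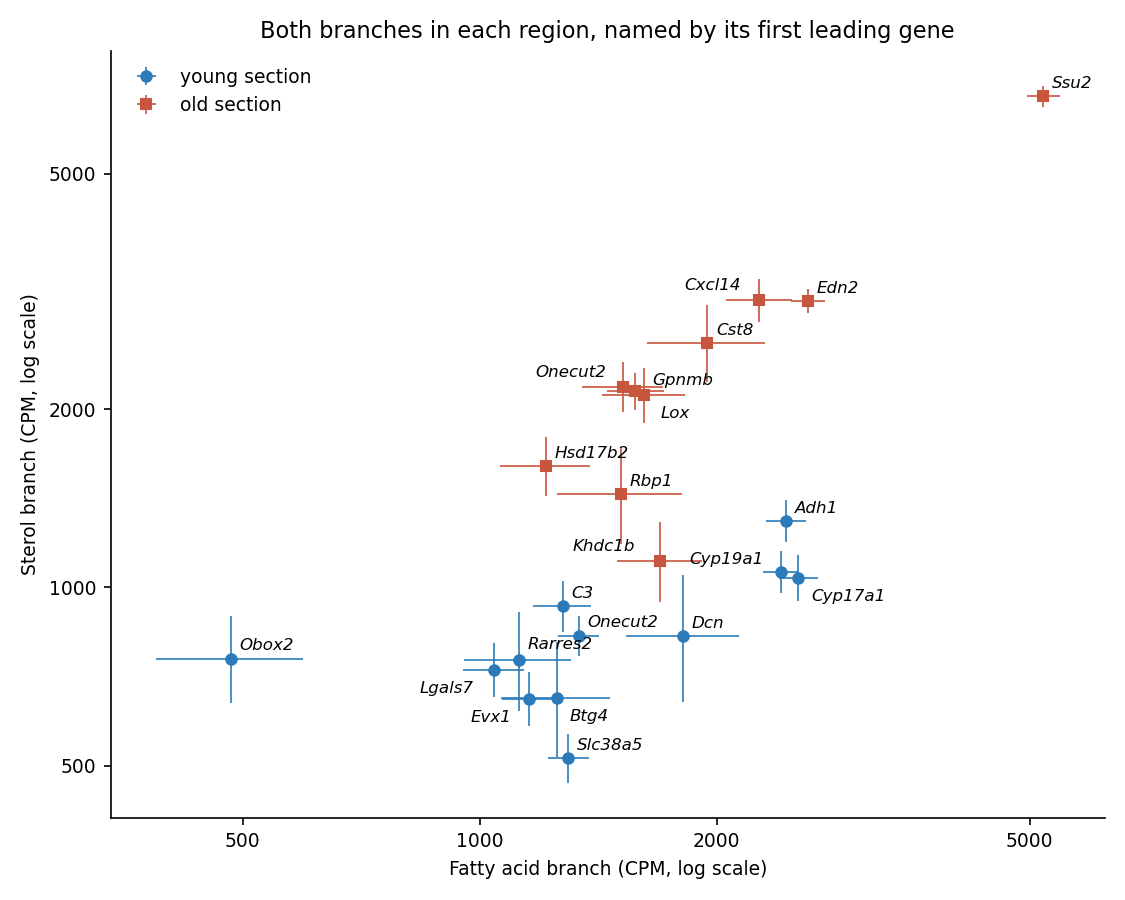
Sterol branch against fatty acid branch in every region of the young section (circles) and the old section (squares), in CPM on log axes with exact Poisson 95% intervals; each region is named by its first leading gene. The old region led by Ssu2 stands apart at 6748 and 5203, and 9 of 10 old regions lie above all 12 young regions on the sterol axis.

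In the young section the highest sterol level, 1294 CPM (1192 to 1402), was in the region led by Adh1, Bpifb5 and Mme, which also held the highest level of steroid-forming markers. Different enzymes peaked in different regions of the young section. The region led by Cyp19a1, the aromatase of growing follicles, held Elovl6 at 603 CPM, Scd2 at 771 CPM and Scap at 584 CPM, each its highest level among the 12 regions. The region led by Cyp17a1, the theca enzyme of androgen synthesis, held Fads2 at 769 CPM and Fads1 at 211 CPM, again the highest. That region also had the highest level of stromal fibroblast markers, 3851 CPM, and held granulosa markers at 7171 CPM. Its theca and interstitial markers, at 11403 CPM, were lower than in the regions led by Adh1 (22560 CPM), Dcn (15160 CPM) and C3 (12023 CPM). In the oocyte region led by Obox2, of 13 bins, the fatty acid branch was at its lowest, 483 CPM, while the sterol branch was not, at 758 CPM. Fdft1 reached 203 CPM (143 to 280) there and 14.0 to 88.2 CPM in the others, and Insig1 137 CPM, also its highest. Cyp51, Dhcr7, Mvk, Tm7sf2 and Scd1 had no count in that region, which at its 182094 counts allows up to 16.5 CPM, taking 3 counts as the limit. Mvk and Tm7sf2 lay below that limit over the whole young section, at 12.6 and 8.72 CPM, so their lack of counts says little.

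A luteal region led by Onecut2 was found in each section, a pair chosen after the regions were seen and not matched in its markers. Steroid-forming markers were at 18666 CPM in the young and 29179 CPM in the old region, and luteal markers at 12498 and 8087 CPM. The sterol branch was at 828 CPM in the young and 2180 CPM in the old region, a ratio of 2.63 (2.32 to 2.98), and the fatty acid branch at 1336 and 1521 CPM, a ratio of 1.14 (0.995 to 1.30). The sterol branch was thus higher in the old region, the interval of the fatty acid branch included 1, and the part of the marker differences in these ratios was not tested.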

How the data were processed

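The deposited tables held whole-number counts per gene and bead for 2 Slide-seq libraries, with a deposited list of bead positions; per the submitters' processing notes the reads were aligned to mm10, while the aligner and counting rule, and with them whether a count is a molecule or a read, were not given in the sources used here. For each section the counts of its beads were added up and divided by the section total (CPM, per 1000000). Level intervals are exact Poisson and ratio intervals exact conditional binomial at 95%; PCR copies are not independent molecules, so they cover counting error only. A size of 1.5-fold was used to count genes, without a test. Square bins 5 bead spacings wide were kept from 500 counts upward and held 98.7% of young and 97.7% of old counts. Bead positions were used as deposited, divided by the median bead spacing. Regions came from Leiden clustering (scanpy 1.11.5) at resolution 1 on 2000 variable genes, 20 components and 15 neighbours, without the genes described. A bin holds RNA of several cells, so regions are named by leading genes.

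The 32 genes, the pathway and marker lists and the tests were chosen with earlier results of these data known. Every measured gene of the 32 was named by rule, together with the most abundant and most extreme genes of each further list and Hsd17b7 and Scarb1; some genes of these lists are not reported here. In counts simulated with Poisson error only, the 95% intervals held the true old/young ratio for 95.7% of 12423 genes. The intervals assume that same model, so this checks the calculation and not the spread in these data. Alternatives covered beads, quadrants of the sections, scaling, bin size and cluster resolution. Computation used Python 3.11.15, numpy 2.4.6, scipy 1.17.1 and matplotlib 3.10.9. Promoter windows came from RefSeq (GRCm38.p6).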

Additional observations from a re-analysis of the deposited data

Results flagged for a closer look

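Some genes lay at least 1.5-fold from 1 on opposite sides in the 2 sections when bins rich in steroid-forming, luteal, granulosa or theca and interstitial markers were set against the other bins; branch sums are given where both intervals excluded 1. None of these differences between sections was tested, since there is 1 section per age and bins are not replicates. The share of all genes that lie on opposite sides in this way was not computed. These cases are therefore a list and not a trait of the pathway genes. In bins rich in steroid-forming markers, Sqle, the squalene epoxidase, was at 2.21 in the old section (1.63 to 2.99) and 0.512 in the young (0.239 to 0.978). Scd1, a stearoyl-CoA desaturase, was at 0.541 (0.360 to 0.789) among old bins and 2.11 (1.60 to 2.76) among young bins. Scd2 also lay on opposite sides, by less than that size in the young section, at 1.96 (1.77 to 2.18) and 0.868 (0.762 to 0.985).

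Most of the other cases concern luteal bins. There the fatty acid branch as a whole was at 2.02 (old) and 0.840 (young), and the regulators together at 1.52 and 0.799. Among sterol genes, Sc5d was at 3.01 and 0.513, Fdft1 at 2.05 and 0.364, and Mvd, which rests on few counts, at 1.87 (1.03 to 3.29) and 0.315 (0.0627 to 0.983). Among fatty acid genes, Elovl6 was at 1.57 and 0.321, Fads1 at 1.84 and 0.511, and Fads2 at 1.84 and 0.501. Insig1, the brake on the sterol-sensing machinery, was at 1.88 and 0.399. Scd1 was again the reverse of the others, at 0.479 (0.312 to 0.711) among old bins and 1.60 (1.20 to 2.11) among young bins. In granulosa bins Fdft1, the squalene synthase, was at 1.53 (1.05 to 2.23) among old bins and 0.633 (0.440 to 0.892) among young bins.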

How the results depend on the processing

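The old/young ratios of both branches and of the regulators stayed above 1 under each alternative run. The sterol ratio divided by the fatty acid ratio stayed within its interval under those run for it, which left out the most abundant gene of both branches together (2.25) and not of 1 branch alone. The sterol ratio was 3.72 on beads with at least 200 counts, 3.40 with trimmed-mean scaling, 3.24 without Msmo1 and 3.13 with bins weighted equally. Leaving out a quadrant of the old section gave 3.72 (low x and low y), 2.90 (low x and high y), 3.75 (high x and low y) and 3.80 (high x and high y). The fatty acid ratio was 1.57 on deep beads, 1.45 with trimmed-mean scaling, 1.44 without Scd2 and 1.35 with equal bins; it was 1.59 without either young quadrant of low x, 1.44 without the young quadrant of high x and high y, and 1.27, 1.62 and 1.61 without the old quadrants of low x and high y, high x and low y, and high x and high y. For the regulators the ratio was 2.10 without Scap, 1.36 with equal bins, 1.60 without the young quadrant of low x and high y and 1.58 without the old quadrant of high x and high y. Without the highest-sterol old region, an alternative chosen after seeing the data like those for regulators and single genes, the ratios were 2.82, 1.23 and 1.34. Sterol genes at least 1.5-fold higher numbered 13 or 14 and fatty acid genes 3 to 5; on deep beads no fatty acid gene was lower by that size. Of 372 values of single genes none reversed and 44 moved past their interval.

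With the tenth of bins in place of the fifth, steroid-forming ratios in the old section were 2.85 (sterol) and 2.67 (fatty acid), and the old luteal sterol ratio 2.11. In granulosa bins of the young section they were 1.26 and 1.61, the first from 0.971. In theca and interstitial bins they were 0.903 and 0.945 in the old section, from 1.11 and 1.1, and 1.75 and 1.70 in the young. With bins of 8 spacings the old theca and interstitial sterol ratio was 0.980, the old granulosa sterol ratio 1.58, and the young fatty acid ratios 1.46 (granulosa), 0.783 (luteal) and 1.52 (steroid-forming). At that size Moran's I was 0.280 (sterol) and 0.476 (fatty acid) in the young section and 0.656 (fatty acid) in the old. Pearson's r between branches was 0.382 and 0.821, and Spearman's rho 0.330 and 0.529, young then old. At cluster resolution 0.5 the highest region stood above the lowest by 2.12 (young sterol), 2.63 (young fatty acid) and 3.66 (old fatty acid). The cause of these shifts was not tested.

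No paired analysis was possible because the groups hold 1 library each and share no replicate number. The depth, at a median of 125 to 153 counts per bead, limits single genes to bins and regions; genes with few counts, such as Mvk, Mvd, Ebp, Tm7sf2 and Acss2, have wide intervals in each.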

Other observations

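A steroid-forming gene had the bin-by-bin pattern most like each branch in both sections. In the old section, of 759 genes with at least 500 counts outside the pathway lists, the sterol branch was most like Cyp11a1 (Pearson's r 0.67 across 895 bins), Bace2 (0.62), Cst8 (0.58), Prlr (0.57), Lhcgr (0.55), Ltbp1 (0.51), Hsd3b1 (0.51) and Sfrp4 (0.50). For the fatty acid branch Cyp11a1 again came first at 0.61, followed by Lhcgr at 0.58, Prlr at 0.56 and Bace2 at 0.56, and the list also held Plin4, a coat protein of lipid droplets, at 0.46. In the young section, of 2201 genes, the sterol branch was most like Hsd3b1 (0.39 across 1338 bins), Cyp11a1 (0.31), Aldh1a1 (0.29) and Mgarp (0.29), and the fatty acid branch Hsd3b1 (0.49), Gramd1b, a mover of cholesterol between membranes (0.47), Lhcgr, the receptor of luteinizing hormone (0.44), Trib2 (0.40) and Cyp17a1 (0.40). Bins share a library and depth, so these values are descriptions.

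In the old region led by Khdc1b, H1f8 and Elobl, which held the highest level of oocyte markers in that section at 3431 CPM, the sterol branch was at its lowest among the 10 regions at 1108 CPM (946 to 1290), while Scd2 stood at 768 CPM. Granulosa markers were also highest in that old region, at 5133 CPM. In the young section it was the fatty acid branch that was lowest in the oocyte-rich region led by Obox2. That young region held oocyte markers at 35097 CPM and granulosa markers at 1505 CPM. These regions were thus not matched in their markers, and the difference between them was not tested.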
